A study of Mus musculus with 10 samples.

Results

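The genes described here encode the proteins of the mitochondrial ribosome. They were taken by their symbols, Mrpl for the large subunit and Mrps for the small subunit, each followed by a number and at most 1 letter, so pseudogenes were left out. This gave 78 genes of the 26335 in the table, 49 of the large and 29 of the small subunit. All 78 were among the 12306 genes that were tested, which had a mean above 0 log2 CPM, the logarithm of the reads of a gene scaled to the size of its library.

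The mitochondrial ribosome translates the few mRNAs that the mitochondrial genome encodes, all of them for subunits of the oxidative phosphorylation system. Its rRNAs are transcribed from mitochondrial DNA, while its proteins are encoded in the nucleus, made in the cytosol and imported. Many of these proteins have counterparts in the bacterial ribosome, and the others were added during the evolution of mitochondria. The large subunit forms peptide bonds and carries the exit tunnel of the new chain, and the small subunit binds and decodes the mRNA.

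RNA was sequenced from an mSCLC line, the one in the study that came from a primary tumour, of a mouse model of small cell lung cancer in which Rb1 and Trp53 are deleted in the lung by Cre, an alteration that control and treated cells share. 5 control libraries came from cells given DMSO, the solvent, and 5 from cells given stiripentol, both for 48 h. Stiripentol is an antiepileptic drug that inhibits lactate dehydrogenase and, as the study reports, mitochondrial complex I. The cells are 1 line from 1 tumour, and the labels do not say whether the 5 libraries of a group came from separate cultures, so the p-values measure the spread between these libraries. The question was how nuclear genes for the mitochondrial translation machinery differed after the drug.

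The libraries held 22375625 to 65299372 reads in control and 55015760 to 60670901 after stiripentol. In each group 2 libraries stood apart from the other 3. Correlations across genes were 0.983 to 0.997 within and 0.920 to 0.939 between these clusters. Controls 4 and 5 and stiripentol 1 and 2 form what is called here the 2 by 2 cluster, and the other 6 libraries the 3 by 3 cluster. The clusters were seen in the data and were matched between the groups by their size, and the labels do not say what separates them. Among markers of this tumour type, Ncam1 had 2627 to 9215 reads per library while the neuroendocrine genes Insm1 and Syp had 0 to 10 and 2 to 20 reads and were below the level tested. Of 24 markers of tumour states and other cell types, 21 were in the table and 12 were tested. Markers of other cells that moved with the treatment were Col3a1, Pdgfra and Pdgfrb of 5 fibroblast genes, which fell, and the macrophage gene Cd68, which rose by 3.21 on the log2 scale, while the leukocyte gene Ptprc had 0 to 3 reads. Of 2 epithelial genes tested, Krt8 fell by 0.36, and Krt18 differed by -0.47 and was not called. Of the genes that mark small cell lung cancer states, Ncam1 rose by 0.46, Avil rose by 5.01 and Yap1 fell by 0.87. Their part in the results was not tested. In bulk RNA, a change in the share of a cell type and a change in RNA per cell cannot be told apart.

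More genes of the mitochondrial ribosome were higher than lower after stiripentol, in both subunits. 27 of the 78 were called higher at an adjusted p under 0.05, and 4 were called lower (limma, adjusted by Benjamini-Hochberg over all genes tested). Across all genes tested, 13.6% were called higher and 14.1% lower, against 34.6% and 5.13% of the 78. The difference was positive for 57 of the 78, with a median of 0.28 on the log2 scale, beside a median of -0.06 over all genes tested. The changes were moderate, from a fold of 0.607 to a fold of 1.97.

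In the large subunit 17 of 49 genes rose and 3 fell, and the median difference was 0.27. In the small subunit 10 of 29 rose and 1 fell, and the median difference was 0.30, with 0.21 in the 2 by 2 and 0.20 in the 3 by 3 cluster alone. With the subunits taken by symbol, the share of genes called higher was 34.7% in the large and 34.5% in the small subunit. The values of the groups did not overlap for 27 of the 78 genes in the upward direction and for 2 in the downward direction, beside 13.0% and 14.3% of all genes tested. For the other 49 genes the ranges of the 2 groups overlapped.

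**Figure D1:**
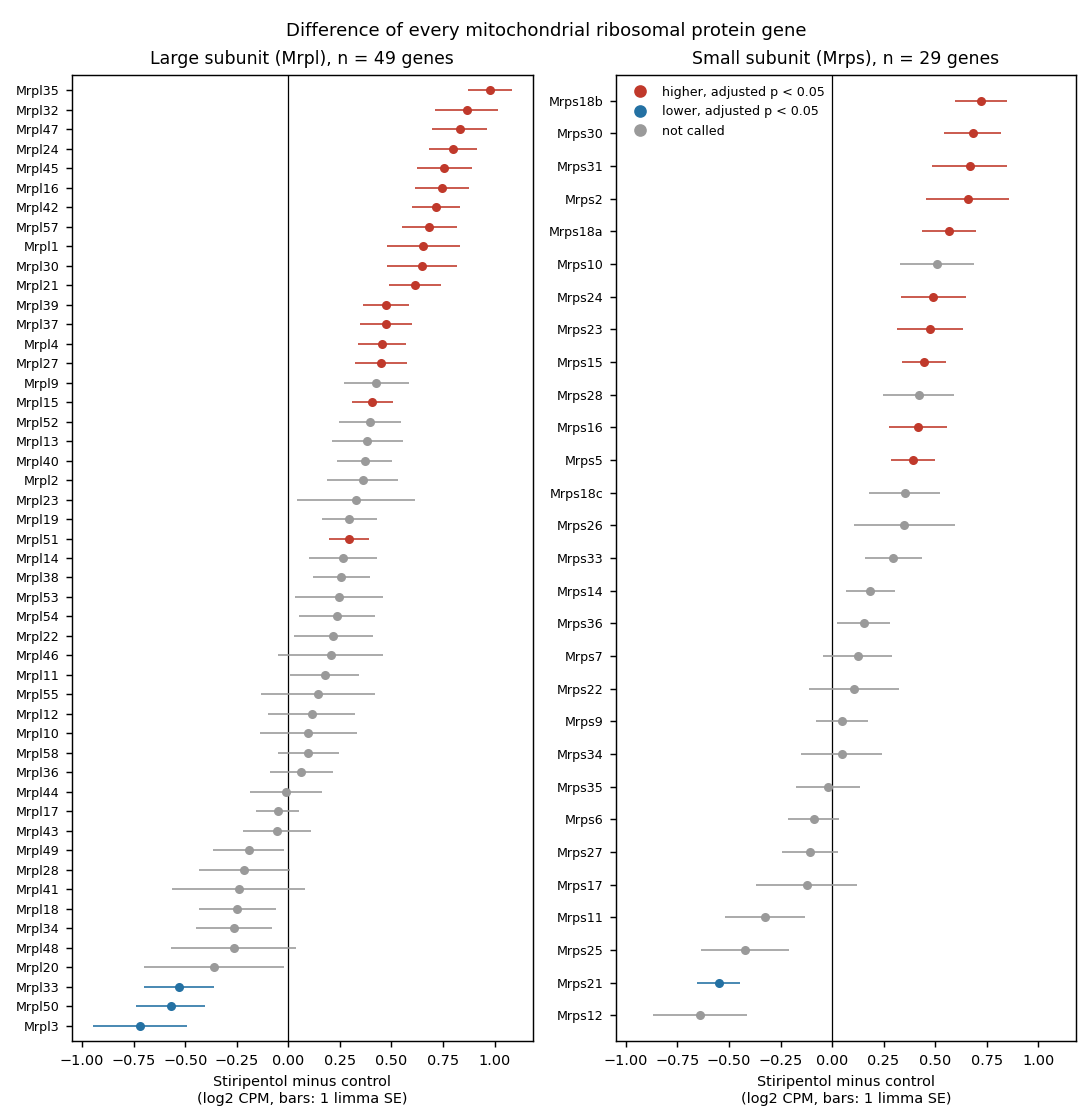
Difference between stiripentol and control in log2 CPM (horizontal axis) for each of the 49 large subunit and 29 small subunit genes, with bars of 1 standard error from limma. Red points were called higher, blue points lower and grey points were not called. Mrpl35 has the highest value (0.98) and Mrpl3 the lowest (-0.72).

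Among the large subunit proteins with bacterial counterparts, Mrpl35 had the lowest adjusted p of all members. Its log2 CPM was 5.15, 5.00, 5.08, 5.22 and 5.19 in controls 1 to 5 and 6.31, 6.16, 6.10, 5.95 and 6.01 in stiripentol libraries 1 to 5. Every treated library was above every control, and both groups were narrow. The difference was 0.98 ± 0.11 (SE), a fold of 1.97 (limma, adjusted p = 0.000239), and it was similar in both clusters, 1.03 in the 2 by 2 and 0.95 in the 3 by 3 cluster.

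Mrpl32 encodes a large subunit protein that is matured by a protease of the inner membrane before it joins the ribosome. Its log2 CPM was 4.68, 4.79, 4.62, 4.81 and 4.68 in the controls and 5.98, 5.84, 5.43, 5.38 and 5.28 after stiripentol. The 2 highest treated values were those of the 2 by 2 cluster, and all 5 were above the controls. The difference was 0.86 ± 0.15 (SE; limma, adjusted p = 0.00288).

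Mrpl47 and Mrpl24, whose bacterial counterparts sit near the exit of the peptide tunnel, rose by 0.83 and 0.80 on the log2 scale. Mrpl16, next to the tRNA sites of the large subunit, rose by 0.74. The values of Mrpl24 ran from 5.99 to 6.39 in control and from 6.80 to 7.19 in stiripentol libraries, and those of Mrpl16 from 4.41 to 4.55 and from 4.98 to 5.54. Neither pair of ranges overlapped. Mrpl1, the protein of the mobile stalk beside the tRNA exit site, rose by 0.65, and Mrpl30 by the same 0.65, Mrpl21 by 0.61, Mrpl4 by 0.45, Mrpl27 by 0.45 and Mrpl15 by 0.41.

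Among the proteins of the large subunit with no bacterial counterpart, Mrpl45, which holds the ribosome to the inner membrane, rose by 0.76 ± 0.13 (SE; limma, adjusted p = 0.00287). It measured 5.95, 5.94, 6.16, 6.36 and 6.38 log2 CPM in control and 7.16, 7.07, 6.84, 6.76 and 6.74 in stiripentol libraries. The clusters differed from each other within both groups, and the groups did not overlap. Mrpl42 rose by 0.72, Mrpl57 by 0.68, Mrpl39 by 0.47, Mrpl37 by 0.47 and Mrpl51 by 0.29.

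Mrps30 and Mrps18a carry small subunit symbols, but their proteins were found in the large subunit when the structure of the mammalian ribosome was solved. Mrps30 measured 5.00, 4.90, 4.99, 5.04 and 4.88 log2 CPM in control and 5.94, 5.94, 5.48, 5.45 and 5.41 in stiripentol libraries, a difference of 0.68 ± 0.14 (SE; limma, adjusted p = 0.00583). Mrps18a rose by 0.57. With these placed in the large subunit, 8 of 21 mitochondrial-specific large subunit genes were higher and 1 was lower, and 11 of 30 with bacterial counterparts were higher and 2 lower. In the small subunit without them, 3 of 11 mitochondrial-specific genes were higher and none lower. Of 15 small subunit genes with bacterial counterparts, 5 were higher and 1 lower. Over both subunits the count was 16 higher and 3 lower of 45 genes listed with a bacterial counterpart, with a median of 0.30. Of 32 listed as mitochondrial-specific, 11 were higher and 1 lower, with a median of 0.27. Mrps18a and Mrps18b stand in the mitochondrial-specific list, while Mrps18c stands in the bacterial one. Mrps36, in neither class because its protein is now known as a subunit of the 2-oxoglutarate dehydrogenase complex, differed by 0.15 and was not called.

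In the small subunit Mrps18b had the highest difference. The values were 5.75, 5.69, 5.78, 5.36 and 5.24 log2 CPM in control and 6.21, 6.29, 6.31, 6.32 and 6.30 in stiripentol libraries. The control libraries fell into the 2 clusters, while the 5 treated values lay close together and above all controls. The difference was 0.72 ± 0.13 (SE; limma, adjusted p = 0.00267). Mrps31 rose by 0.67, Mrps24 by 0.49, Mrps23 by 0.48, Mrps15 by 0.44, Mrps16 by 0.41 and Mrps5 by 0.39.

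Mrps2, whose bacterial counterpart lies on the back of the small subunit, showed another arrangement of the libraries. Its log2 CPM was 5.55, 5.63, 5.43, 5.06 and 4.86 in control and 5.58, 5.60, 6.17, 6.24 and 6.21 in stiripentol libraries. The treated libraries of the 2 by 2 cluster lay at the level of the controls of the 3 by 3 cluster, so the groups overlapped. Within the clusters the difference was 0.64 and 0.67, and over all 10 libraries it was 0.66 ± 0.20 (SE; limma, adjusted p = 0.0335).

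4 genes fell. Mrpl3, a large subunit protein that reaches toward the peptidyl transferase centre, had the lowest difference of the 78. Its log2 CPM was 6.11, 6.08, 5.90, 5.41 and 5.21 in control and 4.64, 4.60, 5.26, 5.27 and 5.33 in stiripentol libraries. Control 5, at 5.21, was below the treated libraries of the 3 by 3 cluster, so the groups overlapped, although the difference was negative in both clusters, at -0.69 and -0.74. Over all 10 libraries it was -0.72 ± 0.23 (SE; limma, adjusted p = 0.0389).

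Mrps21, the counterpart of a small protein of the bacterial small subunit, separated most clearly among the genes that fell. Its log2 CPM was 5.54, 5.48, 5.30, 5.67 and 5.54 in control and 4.98, 4.98, 4.94, 5.02 and 4.86 in stiripentol libraries. All treated values were below all controls, and the difference was -0.55 ± 0.10 (SE; limma, adjusted p = 0.00418).

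Mrpl50, a mitochondrial-specific protein, measured 5.18, 5.28, 4.83, 4.74 and 4.72 log2 CPM in control and 4.06, 4.20, 4.55, 4.53 and 4.57 in stiripentol libraries. The groups did not overlap, and the difference was -0.57 ± 0.17 (SE; limma, adjusted p = 0.0288). Mrpl33 measured 5.16, 5.14, 4.88, 5.12 and 4.98 in control and 4.98, 4.80, 4.34, 4.18 and 4.33 after stiripentol. Its fall of 0.53 ± 0.17 (SE; limma, adjusted p = 0.0399) came with a difference of -0.78 in the 3 by 3 cluster and of -0.16 in the 2 by 2 cluster, where it was not called. Mrps12, in the decoding centre of the small subunit, and Mrps25 had differences of -0.64 and -0.42 and were not called.

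**Figure D2:**
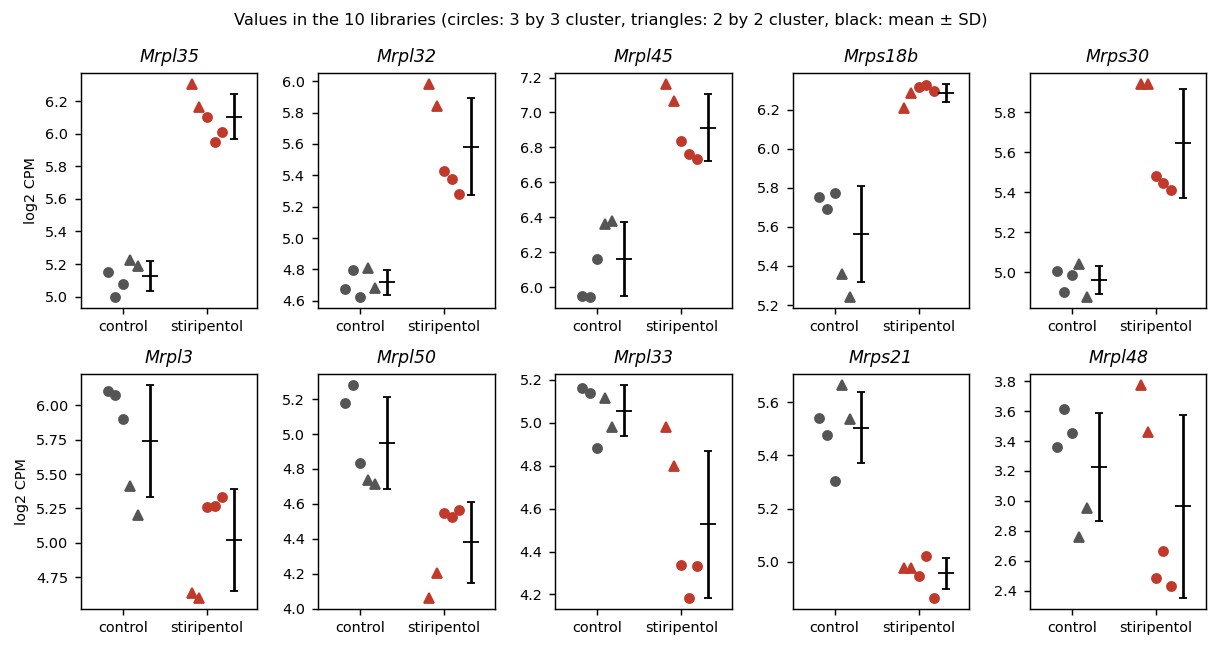
Log2 CPM (vertical axis, with a range of its own for each gene) of 10 genes in the 5 control (grey) and 5 stiripentol (red) libraries. Circles are the 3 by 3 and triangles the 2 by 2 library cluster, and black bars give the mean ± SD of 5 libraries; all stiripentol points of Mrpl35, Mrpl32, Mrpl45, Mrps18b and Mrps30 lie above the controls, while those of Mrpl48 lie above their cluster's controls in one cluster and below in the other.

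Of the 27 genes called higher, 19 were called in each of the 10 fits that left out 1 library. The other 8 were each lost in some of these fits. Mrpl51 and Mrps23 were lost in all 10, with adjusted p of 0.0541 to 0.0958 and 0.0526 to 0.0989 in limma. Mrps16 was lost in 8 fits, all but those without control 4 or stiripentol 5 (highest limma adjusted p = 0.112). Mrps24 was lost in 7, without any one of controls 2 to 5 or stiripentol 3 to 5 (highest limma adjusted p = 0.0848). Mrps2 was lost in 6, without any one of controls 3 to 5 or stiripentol 3 to 5 (highest limma adjusted p = 0.0701). Mrpl1 and Mrps31 were lost without control 3 or stiripentol 2, with a highest limma adjusted p of 0.0528 and 0.0523, and Mrpl27 without control 3 or stiripentol 3, with 0.0553. The count of small subunit genes called higher was 6 without control 3, control 5, stiripentol 3 or stiripentol 4, and without control 5 the small subunit median was 0.19.

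Of the 4 genes that fell, Mrps21 was called in all 10 such fits. Mrpl3 was lost without controls 1, 2 or 3 or stiripentol 1 or 2 (highest limma adjusted p = 0.0917). Mrpl50 was lost without controls 1 or 2 or stiripentol 1 or 2 (highest limma adjusted p = 0.0716). Mrpl33 was lost in 8 fits, all but those without stiripentol 1 or 2 (highest limma adjusted p = 0.0861). The count of large subunit genes called lower was 0 without control 1 or 2, and 1 without control 3, stiripentol 1 or stiripentol 2.

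Within the library clusters the rise of the group was present on both sides. In the 2 by 2 cluster alone, 40 of the 78 genes were called higher and 11 lower (limma), beside 25.7% and 46.5% of all genes tested. In the 3 by 3 cluster alone, 40 were called higher and 13 lower, beside 37.7% and 27.0%. The median difference of the 78 was 0.35 in the 2 by 2 cluster, where all genes tested had a median of -0.25, and 0.24 in the 3 by 3 cluster, where all genes had 0.08. 30 genes were called higher in both clusters and 4 lower in both, beside 15.3% and 18.8% of all genes tested. All 27 genes called higher over the 10 libraries were positive in both clusters, and 25 of them were called in both, the exceptions being Mrpl39 and Mrps15 in the 2 by 2 cluster.

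The difference between the clusters in the response to stiripentol was itself tested as an interaction. The clusters were drawn from these same values, which makes the spread within them small. The p-values of the interaction, and those of the fits within a cluster, can therefore be too low. 37 of the 78 genes, or 47.4%, were called for the interaction (limma, adjusted p under 0.05), beside 63.3% of all genes tested. 26 of the 37 had the higher difference in the 2 by 2 cluster and 11 in the 3 by 3 cluster. Of the 7792 genes called among all tested, 2223 had it in the 2 by 2 and 5569 in the 3 by 3 cluster. Both the count and the split of the members depended on the scaling. With each library centred on its median, 54 members were called, split 49 to 5, beside 7829 of all genes tested. Quantile normalization called 52, split 48 to 4, beside 7377, and size factors called 56, split 50 to 6, beside 7818. The members' share was below that of all genes in the main fit and above it with these scalings. The split over all genes was not counted with these scalings, so the members' splits there have no like comparison. 48 of the 78 genes were positive in both clusters, 12 negative in both, and 18 had opposite signs. Over all 12306 genes tested these counts were 3553, 4200 and 4553.

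Mrpl48 had the greatest gap between the clusters. The libraries gave 3.36, 3.62, 3.45, 2.76 and 2.95 log2 CPM in control and 3.78, 3.46, 2.49, 2.67 and 2.43 in stiripentol libraries. It was 0.76 higher after the drug in the 2 by 2 cluster and 0.95 lower in the 3 by 3 cluster (interaction in limma, adjusted p = 2.5e-05), and the 2 directions left a difference of -0.26 over the 10 libraries, which was not called. Mrpl23 measured 3.63, 3.55, 3.78, 2.71 and 2.38 in control and 3.88, 3.72, 3.37, 3.43 and 3.31 after stiripentol. It was 1.25 higher in the 2 by 2 cluster, through its low values in controls 4 and 5, and differed by -0.29 in the 3 by 3 cluster (interaction in limma, adjusted p = 2.7e-05).

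In the small subunit Mrps12 had the widest gap, with a difference of -1.20 in the 2 by 2 cluster, where stiripentol 1 and 2 measured 2.98 and 3.03 against 4.32 and 4.09 in controls 4 and 5. In the 3 by 3 cluster the difference was -0.27 (interaction in limma, adjusted p = 0.00109). Mrps28 differed by 0.82 in the 2 by 2 and by 0.15 in the 3 by 3 cluster (interaction in limma, adjusted p = 0.00334).

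The clusters were found from the tested genes within each group, so a gap between untreated libraries follows from how they were drawn. For 38 of the 78 genes the mean of controls 1 to 3 was farther from that of controls 4 and 5 than the treated mean was from the control mean, and 52 genes were higher in controls 1 to 3. Neither count was made over all genes tested, so they cannot be read as particular to the members. Mrpl20 was among the 52 genes. It had 5.33, 5.19 and 4.74 in controls 1 to 3 and 3.94 and 3.68 log2 CPM in controls 4 and 5, against 3.81, 3.74, 4.52, 4.47 and 4.54 in stiripentol libraries, and its difference of -0.36 was not called.

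**Figure D3:**
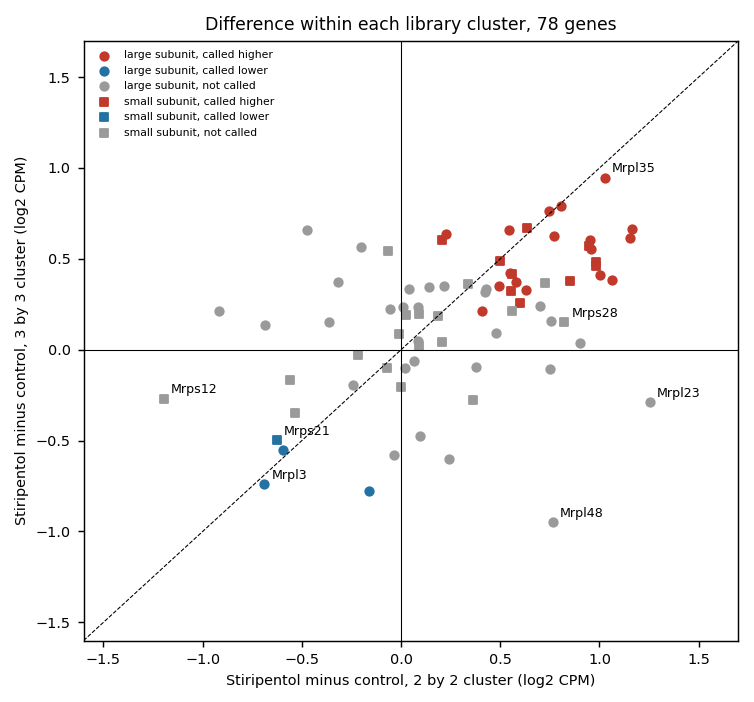
Difference between stiripentol and control in the 2 by 2 library cluster (horizontal axis) against the 3 by 3 cluster (vertical axis), both in log2 CPM, for the 78 genes. Circles are large and squares small subunit genes, colours give the call over all 10 libraries and the dashed line marks equal values; every gene called higher lies in the upper right, and Mrpl23 and Mrpl48 lie in the lower right with opposite signs.

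Several of these genes have annotated copies elsewhere in the genome. Transcripts of the members were compared with all annotated transcripts at a minimum of 95% identity over 250 bases. 14 members had such a copy in the table. Only Mrpl23 and Mrpl48 had one with more than 10% of the member's reads. Mrpl23-ps1, identical over 507 bases, held 3281 reads beside 6328 for Mrpl23, and Mrpl48-ps held 993 beside 5131 for Mrpl48. In the 2 by 2 and 3 by 3 clusters the differences were 1.44 and 0.03 for Mrpl23-ps1, and 0.78 and -0.67 for Mrpl48-ps. The value of 0.03 was not called (limma, adjusted p = 0.832), while Mrpl23 differed by -0.29 in that cluster. Reads of parent and copy can be split or exchanged in counting, so the values of Mrpl23 and Mrpl48 are uncertain. No gene called higher or lower had a copy in the table above 1% of its own reads.

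The profiles of several members ran closely together over the 10 libraries. Those most like Mrpl35 were Mrpl24, Mrpl16 and Mrpl47, with Pearson correlations of 0.974, 0.969 and 0.961. Those most like Mrps18b were Mrps18a, Mrps5 and Mrpl4, with 0.982, 0.975 and 0.967. These correlations describe libraries that share treatment and cluster, and no test is attached to them.

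The RNA partners of these proteins, encoded in the mitochondrial genome, were higher as well. The small subunit rRNA mt-Rnr1 rose from 5.88 ± 0.48 to 8.66 ± 0.62 log2 CPM (mean ± SD, n = 5), by 2.77, and the large subunit rRNA mt-Rnr2 from 7.33 ± 0.23 to 8.63 ± 0.53, by 1.29. No treated library overlapped a control for either. The median difference of the 2 rRNAs was 1.32 in the 2 by 2 and 2.51 in the 3 by 3 cluster. Both were called for the interaction (limma), beside 63.3% of all genes tested. Whether the library kit was one for total RNA or a 3′ kit is unsettled, and its part in the rRNA reads was not tested.

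Of 5 mitochondrial ribosomal proteins with other symbols, 1 rose and none fell. It was Dap3, the GTP-binding protein of the small subunit, at 6.50 ± 0.05 log2 CPM in control and 6.87 ± 0.23 after stiripentol (mean ± SD, n = 5; limma, adjusted p = 0.0349). This call was lost without any one of controls 1 to 5 or stiripentol 1 or 2 (limma adjusted p of 0.0565 to 0.0842).

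Of 26 genes that assemble the ribosome and modify its rRNA, 2 rose and 2 fell, beside 13.6% and 14.1% of all genes tested. The median difference of the 26 was -0.03. The 2 that rose encode methyltransferases of the small subunit rRNA, Tfb1m by 1.03 and Mettl15 by 1.21. The 2 that fell were Nsun4, another methyltransferase of that rRNA that also takes part in joining the subunits, by 1.45, and Rbfa, a maturation factor of the small subunit, by 0.78. Nsun4 was at 4.15 ± 0.16 in control and 2.70 ± 0.78 log2 CPM in stiripentol libraries (mean ± SD, n = 5). Rbfa was lost without controls 1, 2 or 3 or stiripentol 1 or 2 (highest limma adjusted p = 0.091). In the 2 by 2 cluster 7 were called higher and 12 lower (limma), beside 25.7% and 46.5% of all genes tested, with a median of -0.35. In the 3 by 3 cluster 15 were called higher and 4 lower, beside 37.7% and 27.0%, with a median of 0.28. 21 of the 26 were called for the interaction (limma), beside 63.3% of all genes tested.

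Of 15 mitochondrial translation factors, 2 rose and 1 fell, beside 13.6% and 14.1% of all genes tested, with a median of 0.10. Mrrf, which recycles the ribosome after termination, rose by 0.97, and Mtrf1, of the release factor family, by 1.14. Slirp, which binds mitochondrial mRNAs together with Lrpprc, fell by 0.70. In the 2 by 2 cluster 5 were called higher and 6 lower (limma), beside 25.7% and 46.5% of all genes tested, with a median of -0.08. In the 3 by 3 cluster 8 were called higher and 2 lower, beside 37.7% and 27.0%, with a median of 0.40. 9 of the 15 were called for the interaction (limma), beside 63.3% of all genes tested.

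The cytosolic ribosomal protein genes are given for comparison. 26 of the 84 tested, or 31.0%, were higher and none was lower, beside 13.6% and 14.1% of all genes tested. Their median difference was 0.38, and 82 were positive. In the 2 by 2 cluster 81 were called higher and 1 lower (limma), beside 25.7% and 46.5% of all genes tested. In the 3 by 3 cluster 48 were higher and 2 lower, beside 37.7% and 27.0%. The medians were 0.57 and 0.26. 39 of the 84 were called for the interaction (limma), beside 63.3% of all genes tested. Of these 39, 38 had the higher difference in the 2 by 2 cluster and 1 in the 3 by 3 cluster. The members leaned the same way, 26 to 11. No test between this list and the mitochondrial ribosomal proteins was made.

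**Figure D4:**
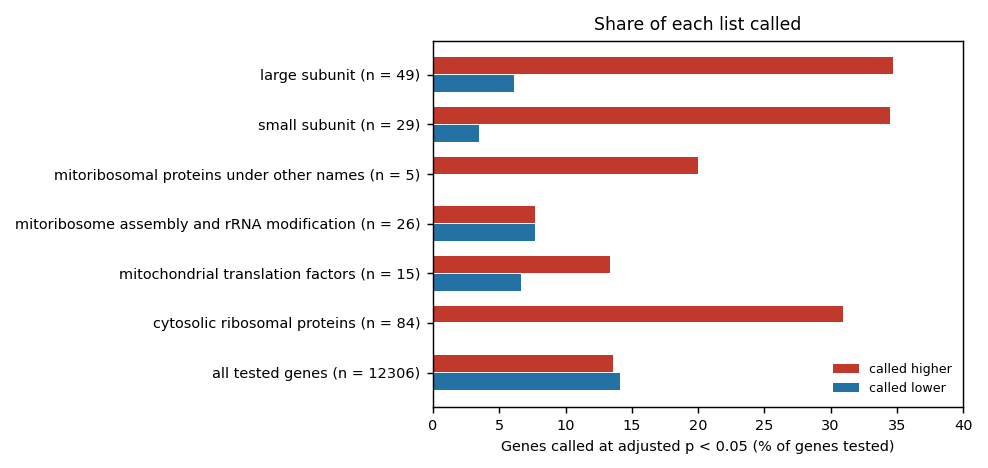
Share of the genes tested in each list (horizontal axis, percent) that were called higher (red) or lower (blue) after stiripentol, with the number of genes tested in brackets. Both subunits of the mitochondrial ribosome, taken by symbol, lie near 34% to 35% higher, the cytosolic ribosomal proteins at 31.0% and all genes tested at 13.6%.

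On the genome (mm10, with gene positions from GENCODE M21 on GRCm38) the 78 genes lay on 17 chromosomes, with 11 on chromosome 11, 8 on chromosome 17 and 7 on chromosome 6. Mrpl35 lies at chr6:71812997-71826969 on the minus strand, Mrps18b at chr17:35910379-35916389 on the minus strand, Mrpl3 at chr9:105053239-105079888 on the plus strand and Mrps21 at chr3:95862634-95871519 on the minus strand. 33 members shared exon bases with another gene, and for 22 of these the other gene had a mean above 0 log2 CPM. In 3 the shared part was more than 50% of the member's exons. These were Mrpl53 with Gm42688, Mrps25 with Nr2c2 and Mrps34 with Mapk8ip3, none of them called. Among the genes called, Mrps18b shared 30.5% with the antisense gene Gm16279, which had a mean of 0.00825 log2 CPM, Mrpl24 26.3% with Rrnad1, Mrps24 15.4% with Urgcp, and Mrpl47 13.9% with Ndufb5 and 10.2% with Actl6a. Whether reads were counted by strand is not given in the sources used here, so reads from the overlaps cannot be told apart.

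Some of these genes start head to head with a neighbour. 33 members had a protein-coding gene on the opposite strand whose start lay at most 1000 bases from theirs, and for 31 of these the neighbour was tested. In some pairs, such as Mrpl48 with Rab6a, the genes overlapped at their starts. Member and neighbour differed in the same direction in 19 of the 31 pairs, counting the pair of Mrpl46 and Mrps11 from each side. The median difference of the neighbours was 0.17. Neither such neighbours nor pairs in the same direction were counted over all genes, so these counts cannot be read as particular to the members. Beside Mrpl57 (0.68), whose start is 49 bases away, Ska3 differed by 1.10, and beside Mrpl21 (0.61) Ighmbp2 by 0.84. Beside Mrps18b (0.72), whose start is 45 bases away, Ppp1r10 differed by -1.80. Beside Mrpl32 (0.86), 75 bases away, Psma2 differed by -0.10. Mrpl46 and Mrps11 are themselves head to head and differed by 0.21 and -0.32.

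**Figure D5:**
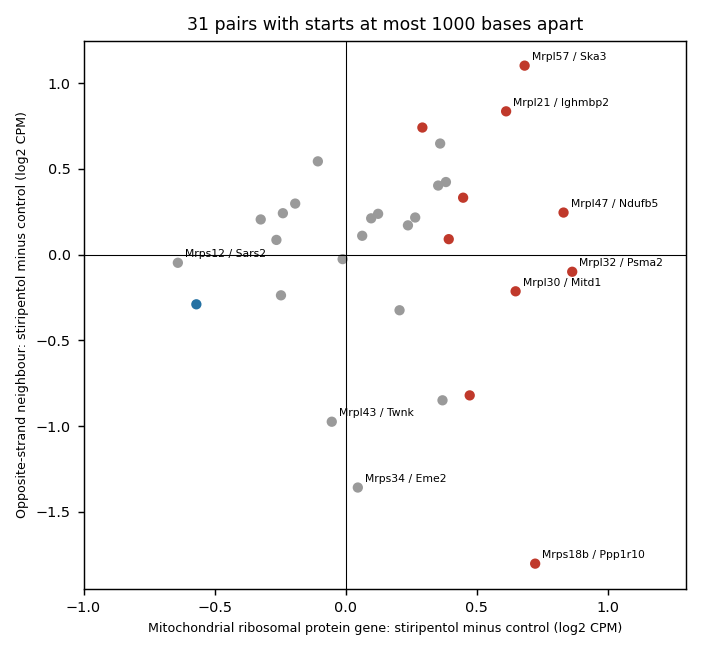
Difference between stiripentol and control (log2 CPM) of 31 members (horizontal axis) against that of the opposite-strand neighbour with the nearest start (vertical axis). Red members were called higher, blue lower and grey not called; Ppp1r10, beside Mrps18b, has the lowest neighbour value (-1.80) and Ska3, beside Mrpl57, the highest (1.10).

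The start regions of the members were searched for 5 short motifs on both strands, in RefSeq windows (GRCm38.p6) from 250 bases before to 50 bases after a gene's start. 69 of the 78 members had windows, 75 in all, and 9142 of the genes tested had 11722. The YY1 motif AAGATGGCG was in 10.7% of the member windows, beside 3.11% of the windows of all genes tested and 1.40% of all windows. The ETS motif CCGGAAG, read by GABPA, was in 34.7%, beside 18.2% and 8.86%. The NRF1 motif GCGCATGCG was in 9.33%, beside 3.69% and 1.75%. The E-box CACGTG, in 9.33% beside 9.98% and 7.15%, and the CRE motif TGACGTCA, in 2.67% beside 3.14% and 1.79%, were about as frequent as in other genes tested. None of the 5 motifs holds all letters of another, and the windows follow RefSeq starts, which can differ from those of GENCODE.

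8 members held the YY1 motif, and 5 of them were called higher and none lower. Among the 69 members with a window, 25 were called higher and 4 lower. Of the 349 genes tested that held the YY1 motif, 17.8% were called higher and 5.73% lower, beside 13.7% and 14.1% of all 9142 genes with a window. The sites of the 5 members called higher are shown, the motif in capitals.
Mrpl35 (chr6:71823744-71823771, minus strand): ggcaggctgcAAGATGGCGgcttccatc
Mrpl42 (chr10:95501905-95501932, minus strand): agattgaagcAAGATGGCGagcgcgcgg
Mrpl37 (chr4:107066823-107066850, minus strand): tgcacgggcaAAGATGGCGgcgtccagg
Mrps18a (chr17:46111005-46111032, plus strand): ggtgcgttccAAGATGGCGgccctcagg
Mrps24 (chr11:5707652-5707679, minus strand): ggtcgcgccggcccAAGATGGCGtggtc

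The first base of the motif lay 23 bases after the start in Mrpl35, 27 in Mrpl42, 26 in Mrpl37, 11 in Mrps18a and 36 in Mrps24. The differences of these genes were 0.98, 0.72, 0.47, 0.57 and 0.49. Mrps27 held the motif in the same direction 14 bases after its start, differed by -0.11 and was not called. Mrps11 and Mrpl36, also not called, held it in reverse before the start.

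7 members held the NRF1 motif, 3 of them called higher and none lower. Of the 394 genes tested that held it, 15.7% were called higher and 10.4% lower. These 3 are shown with the match, or both overlapping matches, in capitals. Mrpl32 holds it at 2 places of its window.
Mrpl32 (chr13:14613107-14613134, minus strand): tttgacccttGCGCATGCGCaagagggg
Mrpl32 (chr13:14613043-14613070, minus strand): gcggacttaaCGCATGCGCtcagcccgc
Mrpl39 (chr16:84735352-84735379, minus strand): aaggagaggcGCGCATGCGCccccgcgt
Mrps18b (chr17:35916647-35916674, minus strand): aacggcccgaCGCATGCGCactgggagc

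26 members held the ETS motif, with 8 called higher and 3 lower. Of the 1952 genes tested that held it, 16.7% were called higher and 8.35% lower. The 3 that fell are shown because 3 of the 4 genes called lower held it, and Mrpl50 did not. Capitals mark the motif or its reverse complement.
Mrpl3 (chr9:105053239-105053266, plus strand): gagaaacggaCCGGAAGtggcccggctg
Mrpl33 (chr5:31613938-31613965, plus strand): cgcgcatgccCCGGAAGtagtcgttgag
Mrps21 (chr3:95871479-95871506, minus strand): gtagcttccgCTTCCGGtccgcagagac

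A motif in these windows is a match of letters, and binding of the factors was not measured here.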

How the data were processed

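RNA-seq of the mSCLC line was analysed in 5 control and 5 stiripentol libraries, whose groups and numbers came from the sample labels. For 26335 genes the authors deposited a log2 CPM in each library, and their methods name GENAVi for this step. The build in the submitters' processing notes is mm10, and the aligner, counter and gene annotation are not given in the sources used here. The labels name a total RNA kit and the study's methods a 3′ kit, so which part of each transcript was read is unsettled. The deposited file also holds group means, p-values, q-values and ratios of the authors, which were not used. Whole reads were recovered from 100% of the log2 values (tolerance 0.05 reads) to give the depths. A gene with 0 reads is listed at -4.82 in controls 1 to 3 and at -4.74 in the other 7 libraries. Intervals from depth would cover counting error only.

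limma 3.58.1 in R 4.3.3 was fitted to the deposited log2 values of all 12306 genes with a mean above 0, with a mean-variance trend, no covariate and Benjamini-Hochberg adjustment, and calls were made at an adjusted p of 0.05. Within-cluster and interaction fits used the same model. Each fold is 2 to the power of the log2 difference, which includes the authors' small prior and so understates changes of low genes. The code was tested on simulated data. Named were every member called, the 3 highest and 3 lowest per subunit, 2 per subunit by the gap between clusters, called genes of the lists and the rRNAs; Mrpl20 and the neighbours were chosen after their values were seen, as were the sequences shown. The members and lists were chosen with earlier results of these data known. Copies were searched with blastn 2.17.0+. Python 3.11.15, pandas 2.3.3 and matplotlib 3.10.9 were used for the rest.

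Alternatives were a replicate block, the omission of 1 library at a time, a cluster term, each cluster alone, 1 mean per group and cluster, 3 other scalings, other filters and pseudocounts, limma voom on the recovered reads and a minimum difference of 0.5.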

Additional observations from a re-analysis of the deposited data

Results flagged for a closer look

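2 values stood far from the other 4 of their group, in 98 groups of 5 looked at, where about 4.9 would be expected by chance. Control 5 held 22375625 reads and the other controls 57991647 to 65299372, so its members' values carry the most counting error. The median log2 CPM of the 29 small subunit genes was 5.11 in stiripentol 2 and 5.25 to 5.27 in the other stiripentol libraries.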

How the results depend on the processing

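The limits are the 2 library clusters, whose source the labels do not give, and 5 libraries per group. Large subunit genes called lower (3) were 0 with a replicate block, 7 in the 2 by 2 and 9 in the 3 by 3 cluster alone, 0 with 1 mean per group and cluster, 1 with no filter and 0 to 2 without 1 library. Those called higher (17) were 11 with the block, 26 and 27 in the clusters alone, 0 with 1 mean per group and cluster, 11 with a difference of at least 0.5 and 14 to 16 without 1 library. Small subunit genes called lower (1) were 4 with a cluster term, 4 and 4 in the clusters alone, 0 with 1 mean, 2 with median centring, quantile normalization, size factors or voom and 1 to 2 without 1 library. Those called higher (10) were 4 with the block, 0 with 1 mean, 6 with no filter, 5 with a difference of at least 0.5 and 6 to 8 without 1 library. The large subunit median (0.27) was 0.41 in the 2 by 2 cluster and 0.37 with quantile normalization. Members called for the interaction (37) were 54 with median centring, 52 with quantile normalization and 56 with size factors. Beside these stood 7829, 7377 and 7818 of all genes tested, and 7792 in the main fit. Mrpl23 turned to -0.29 in the 3 by 3 cluster alone and Mrpl48 to 0.76 in the 2 by 2 cluster alone. The cause was not tested, except that 1 mean per group and cluster leaves 2 values a group and limma then called 0 of 12306 genes, with 1116 at an unadjusted p under 0.05, 2 of them members. Same-numbered libraries did not deviate together (correlations of -0.24 to 0.06). Except for number 3, the same number joins libraries of different clusters, so these correlations cannot show whether the numbers pair them. With the replicate block 1020 genes were called higher and 1062 lower, 15 and 1 of them members. Quantile normalization moved the median of all genes from -0.06 to 0.05, and 61 of the 78 members were then positive in place of 57. Over 46 named genes and 23 alternatives, 883 values kept direction and side of the threshold, 159 lost and 14 gained the call, and 2 changed sign.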
